A study of Mus musculus with 10 samples.

Results

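The genes of the mitochondrial respiratory chain and ATP synthase were followed in O9-1, a line of mouse cells with the properties of cranial neural crest. Members were chosen by name. They comprised the Nduf, Sdh, Uqcr, Cyc1, Cox and Atp5 genes of the nucleus and the mt-Nd, mt-Co, mt-Atp and mt-Cytb genes of the mitochondrial genome, with a mean of at least 50 raw counts in wildtype cells. Of 43346 genes counted, 97 had such a name after 3 annotated pseudogenes had been left out, and 84 passed the limit on counts. They are 77 nuclear genes (35 for complex I, 4 for complex II, 9 for complex III, 12 for complex IV and 17 for complex V) and 7 genes of the mitochondrial genome, called mt- genes here. *Atp5s* and *Atp5sl* are counted with complex V by name, without being subunits of it. The limit removed 7 nuclear and 6 mt- genes, which are described separately. Closest to the limit, *mt-Co2* with a mean of 31 raw counts lay outside and *Ndufb2* with 177 inside. The rule uses names and wildtype counts only, and it was set with earlier results of these data known.

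The respiratory chain passes electrons from NADH and succinate to oxygen through complexes I to IV, and complex V (ATP synthase) uses the resulting proton gradient to make ATP. Complex II is built from nuclear genes only, while the other complexes combine nuclear subunits with subunits that are transcribed and translated inside the mitochondrion. The 2 gene sets are therefore read from separate genomes by separate RNA polymerases, and levels of nuclear and mt- genes can differ within the same cell.

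Poly-A RNA was sequenced from 4 independent wildtype samples (WT/1 to WT/4), 3 Kat5 ko clones (Kat5/1 to Kat5/3) and 3 Ep400 ko clones (Ep400/1 to Ep400/3). Kat5 and Ep400 are the acetyltransferase and the ATP-dependent remodeler of the Tip60/Ep400 chromatin complex. All cells carried the same tetraploid O9-1 background and were cultured on Matrigel in medium conditioned by STO fibroblasts. According to the methods, every allele of the Kat5 ko clones and of Ep400/1 was disrupted by CRISPR/Cas9 editing, whereas Ep400/2 and Ep400/3 each keep alleles with an in-frame deletion in the ATP-binding site. Each ko library is a different clone, so differences between clones and differences between cultures cannot be told apart within a group. The ko clones were grown from single cells sorted for EGFP after transfection with plasmids. The methods describe no such steps for the wildtype samples, so effects of these steps and of the ko cannot be told apart.

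Between 30968945 and 48301792 reads per library were counted on genes. Levels are given in CPM, the share of a library's counts scaled to a common total, after TMM normalization (normalized CPM). Log2-fold changes, standard errors (SE) and p-values come from the quasi-likelihood test of edgeR, with adjustment after Benjamini and Hochberg over all genes tested. A gene was called at an adjusted p of at most 0.05. Wildtype libraries had 53.8 ± 3.98 normalized CPM of *Kat5* (SD, n = 4), and Kat5 ko clones 20.8 ± 3.83 (SD, n = 3) (log2-fold change −1.40, SE 0.17, adjusted p = 0.0217 by edgeR). *Ep400* had 159 ± 3.91 (SD, n = 4) and 58.6 ± 3.47 (SD, n = 3) in wildtype cells and Ep400 ko clones (log2-fold change −1.44, SE 0.12, adjusted p = 0.00121 by edgeR). Of 15 neural crest markers, *Sox10* and *Foxd3* were at 0 in all libraries, and the summed level was 1594 to 1837 normalized CPM in wildtype, 1673 to 1864 in Kat5 ko and 1848 to 3076 in Ep400 ko libraries. *Prrx1* and *Cd44* made up most of this sum, and *Prrx1* alone had 2158 in Ep400/3. In Ep400 ko clones, 3 of 13 markers tested were called against wildtype (*Tfap2a*, *Snai2* and *Pax3*, all higher), against 13.9% of all genes tested. Kat5/1 stood apart by the smooth muscle markers, which summed to 685 normalized CPM there and to at most 58.8 in the other libraries. *Acta2* and *Tagln* made up this level, while *Cnn1*, *Myh11* and *Myocd* stayed near 0, and the part of this clone's markers in the results was not tested. Glia and neuron markers summed to 4.62 to 7.60 normalized CPM in wildtype, 2.84 to 12.1 in Kat5 ko and 12.4 to 26.9 in Ep400 ko libraries, and osteoblast markers to 53.7 to 124 over all libraries. Chondrocyte markers summed to 5.77 to 24.8, 3.72 to 56.2 and 0.0937 to 0.399, respectively. Single genes made up these levels. *Runx2* gave nearly all of the osteoblast sum, and *Acan* gave most of the chondrocyte sum in wildtype and Kat5 ko libraries. *Col2a1*, *Col9a1* and *Matn1* stayed near 0 in all libraries. Without Kat5/1, the number of all genes called in Kat5 ko clones rose from 67 to 2651.

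The promoters of the 4 nuclear members that were called in any comparison are shown because the results on nuclear genes turn on these genes. RefSeq promoters on GRCm38.p6 (250 bases before to 50 bases after the start) were matched for 65 of the 77 nuclear members, 62 by symbol and 3 by synonym. Capitals mark matches, on either strand, to GCGC, any 2 bases and GCGC (the NRF1 motif), CCGGAAG (GABP), AAGATGGC (YY1), TGACGTCA (CREB) and CCAAT (NF-Y). Each sequence reads 5′ to 3′ on the strand of its gene.
*Ndufb2*, chr6:39592315-39592614, plus strand: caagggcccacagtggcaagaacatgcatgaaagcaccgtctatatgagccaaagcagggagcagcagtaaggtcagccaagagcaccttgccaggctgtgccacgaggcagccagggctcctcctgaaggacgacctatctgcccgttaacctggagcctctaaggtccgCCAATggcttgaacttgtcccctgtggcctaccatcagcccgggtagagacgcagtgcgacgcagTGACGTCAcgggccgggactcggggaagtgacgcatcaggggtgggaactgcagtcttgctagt
*Atp5sl*, chr7:25619164-25619463, plus strand: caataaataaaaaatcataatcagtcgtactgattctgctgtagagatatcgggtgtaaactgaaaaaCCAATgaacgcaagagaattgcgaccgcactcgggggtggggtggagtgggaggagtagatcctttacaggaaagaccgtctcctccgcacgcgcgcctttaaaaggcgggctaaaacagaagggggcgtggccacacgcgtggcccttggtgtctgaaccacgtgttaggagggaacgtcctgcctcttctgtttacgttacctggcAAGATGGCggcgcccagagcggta
*Atp5b*, chr10:128083057-128083356, plus strand: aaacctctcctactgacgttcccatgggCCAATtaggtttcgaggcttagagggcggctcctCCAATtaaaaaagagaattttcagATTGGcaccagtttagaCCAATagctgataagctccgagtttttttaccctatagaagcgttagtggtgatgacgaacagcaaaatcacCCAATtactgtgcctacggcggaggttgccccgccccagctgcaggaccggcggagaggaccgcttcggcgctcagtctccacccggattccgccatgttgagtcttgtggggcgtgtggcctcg
*Atp5g1*, chr11:96075582-96075881, minus strand: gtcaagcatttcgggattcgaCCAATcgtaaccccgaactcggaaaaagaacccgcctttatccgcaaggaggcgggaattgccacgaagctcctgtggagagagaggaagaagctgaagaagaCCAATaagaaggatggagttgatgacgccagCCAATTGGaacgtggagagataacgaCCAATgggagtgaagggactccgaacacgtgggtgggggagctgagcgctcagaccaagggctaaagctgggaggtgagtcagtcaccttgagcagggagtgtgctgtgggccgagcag

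Nuclear respiratory factor 1 (NRF1) and the ETS factor GABP are known regulators of nuclear genes for the respiratory chain. The NRF1 letters occurred in the promoters of 18 of the 65 members (27.7%) and of 7% of 27025 genes with an entry. The GABP letters occurred in 16 members (24.6%) and in 9.93% of all genes, and the YY1 letters in 11 members (16.9%) and 3.19% of all genes. CREB letters were found in 4 members (6.15%, against 2.03%) and CCAAT in 28 (43.1%, against 41.1%). The 4 promoters shown held neither the NRF1 nor the GABP letters. *Atp5b* and *Atp5g1*, whose transcripts were lower in Ep400 ko clones, each held 5 CCAAT matches, while *Ndufb2* and *Atp5sl*, whose transcripts were higher, each held 1. For *Atp5sl*, 1 of 2 listed promoters is shown and counted here. These 4 genes were chosen by their calls, and numbers of matches per promoter are not given for other genes. A link between CCAAT matches and the direction of change was not tested.

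In wildtype cells, the 7 mt- genes together took 1.71% ± 0.516 of all counts and the 77 nuclear members 1.10% ± 0.0837 (SD, n = 4). The mt- share was the larger in WT/1, WT/3 and WT/4, while both were nearly equal in WT/2 (1.18% and 1.19%). Per kilobase of transcript, the highest members were *mt-Co1* (4844 ± 1799 normalized CPM per kilobase), *mt-Nd1* (2981 ± 801) and *mt-Cytb* (2517 ± 869; SD, n = 4 each), which encode the catalytic subunit of complex IV, a membrane subunit of complex I and cytochrome b of complex III. Among nuclear members, *Atp5b* was highest with 1035 ± 41.2 normalized CPM per kilobase. The lowest were *Atp5sl* with 4.51 ± 0.528 and *Atp5s* with 5.06 ± 0.404 (SD, n = 4 each), which are named after the ATP synthase without being subunits of it, followed by *mt-Nd6* with 8.89 ± 2.81 (SD, n = 4), the complex I gene that is read from the opposite strand of the mitochondrial genome. *Ndufb2* had 10.4 ± 1.15 (SD, n = 4) on its shorter principal transcript and would be lowest with 1.08 on its longer one.

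The other 6 genes of the mitochondrial genome were nearly without counts. In each group, the median of *mt-Co2*, *mt-Atp6* and *mt-Co3* lay between 0.386 and 0.797 normalized CPM and the median of *mt-Nd3* and *mt-Nd4l* between 0.0235 and 0.0498, and *mt-Atp8* was at 0. Summed over the 6 genes, 36 to 147 reads were counted in wildtype, 25 to 81 in Kat5 ko and 50 to 112 in Ep400 ko libraries. These genes lie side by side, between *mt-Co1* and *mt-Nd4*, as the plot of the 13 genes in genome order shows.

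**Figure D1:**
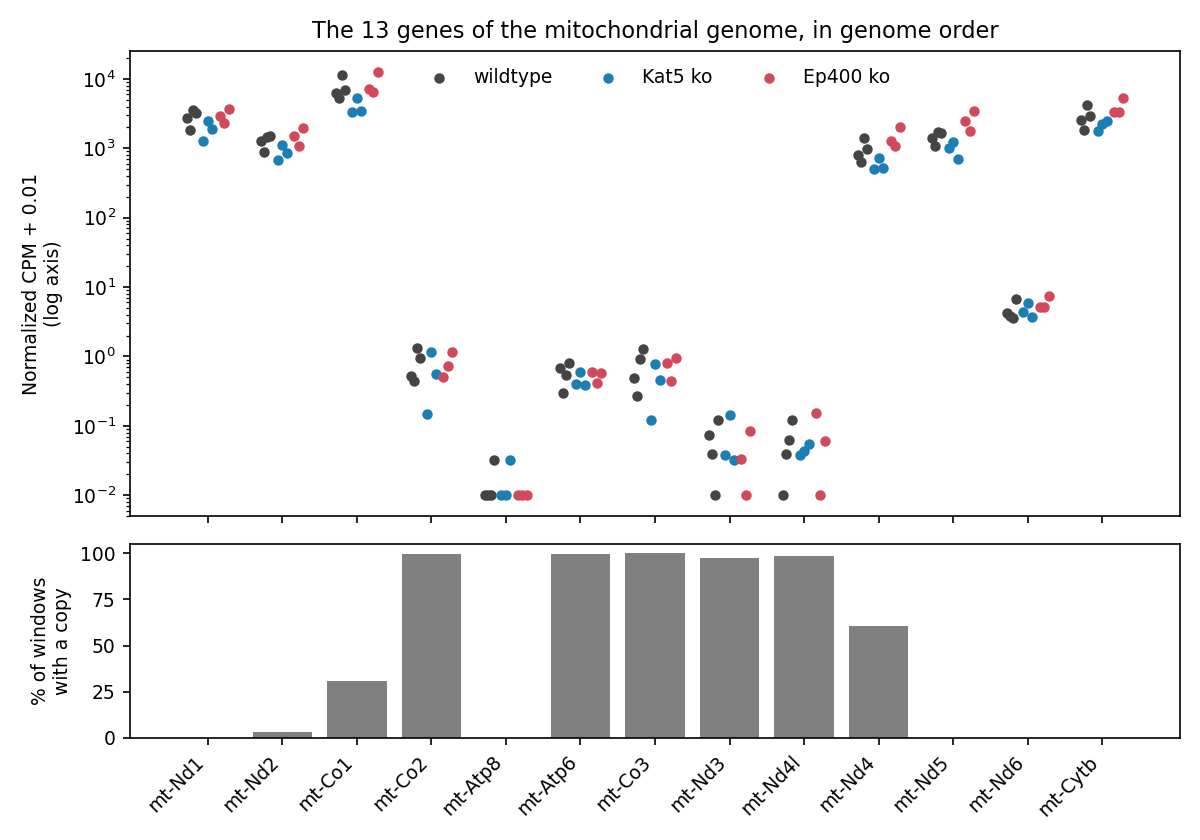
Upper panel: normalized CPM plus 0.01 on a log axis for the 13 protein-coding genes of the mitochondrial genome, with 1 point per library (dark gray wildtype, blue Kat5 ko, red Ep400 ko). Lower panel: percent of each transcript's 100-base windows that occur base for base in an annotated transcript of another gene. The 5 genes with over 95% of windows copied are among the 6 genes near 0.

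For a read of 100 bases, the sequence decides whether a mitochondrial gene can be told from nuclear copies of mitochondrial DNA. Of all 100-base windows, 99.5% of *mt-Co2*, 99.5% of *mt-Atp6*, 99.8% of *mt-Co3*, 97.6% of *mt-Nd3* and 98.5% of *mt-Nd4l* occurred unchanged in pseudogenes on chromosome 1, between positions 24611535 and 24616197 of GRCm38. The share found in annotated transcripts of other genes was 60.8% for *mt-Nd4*, 30.8% for *mt-Co1*, 3.2% for *mt-Nd2* and 0 for *mt-Nd1*, *mt-Nd5*, *mt-Nd6*, *mt-Cytb* and *mt-Atp8*. Only annotated transcripts were searched, so copies elsewhere in the nuclear genome, including between these pseudogenes, would be missed. A stretch of *mt-Co2* is shown next to its copies on chromosomes 1 and 2, because it illustrates how a whole read can match both genomes. Capitals mark bases that differ from *mt-Co2*, of which there are 0 of 90 on chromosome 1 and 3 of 90 on chromosome 2.
*mt-Co2*, chrM:7559-7648, plus strand: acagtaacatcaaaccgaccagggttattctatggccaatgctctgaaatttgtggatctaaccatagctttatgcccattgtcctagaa
*Gm28661*, chr1:24614930-24615019, minus strand: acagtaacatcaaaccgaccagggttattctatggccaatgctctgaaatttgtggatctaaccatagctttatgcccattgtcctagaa
*Gm13341*, chr2:22587339-22587428, minus strand: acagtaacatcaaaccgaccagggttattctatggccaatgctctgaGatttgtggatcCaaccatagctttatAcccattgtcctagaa

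The 7 copies on chromosome 1 had 1978 to 4449 counts in wildtype, 657 to 1694 in Kat5 ko and 2052 to 6087 in Ep400 ko libraries. How reads matching several places were counted is not given in the sources used here, and the part of the copies in the low values of the 6 genes was not tested. Levels of *mt-Nd4* and *mt-Co1* are uncertain for the same reason, and results on mt- genes are therefore also given for the 5 members with under 5% of windows copied.

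Next, members were compared between Kat5 ko clones and wildtype cells. No member was called in Kat5 ko clones. Of the nuclear members, 0 of 77 passed the adjusted threshold, against 0.499% of the 13434 genes tested, and of the mt- genes 0 of 7. With the unadjusted p, 10 nuclear members and 4 mt- genes reached 0.05, all of them lower. Of all 13434 genes tested, 2993 did, 1552 of them lower. Fewer cells of a type and less RNA per cell cannot be told apart in bulk RNA. DESeq2 called 3 nuclear members and 1 mt- gene, against 1391 of the 14218 genes it tested. With limma, no member and 98 of 13434 genes were called. Log2-fold changes were below 0 for 58 of 77 nuclear members, with a median of −0.11, and for 7 of 7 mt- genes, with a median of −0.62. The nuclear median was −0.04 without WT/2, −0.06 without Kat5/3 and −0.20 without Kat5/1. Over all genes tested, the median was 3.2e-05 and 6717 of 13434 were below 0.

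The plot of fold changes by complex shows how small these differences were for nuclear members. In Kat5 ko clones, 72 of 77 lay within 0.5 of 0 on the log2 scale. Median log2-fold changes were −0.12 for complex I, −0.14 for complex II, −0.08 for complex III, −0.19 for complex IV and −0.01 for complex V. In 11 of 77 nuclear members and in 1 of 7 mt- genes, all Kat5 ko libraries were below all wildtype libraries (10.2% of all genes tested), and no member had all Kat5 ko libraries above wildtype (9.67% of all genes tested). Thus, 14.3% of nuclear members and 10.2% of all genes were separated downwards.

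**Figure D2:**
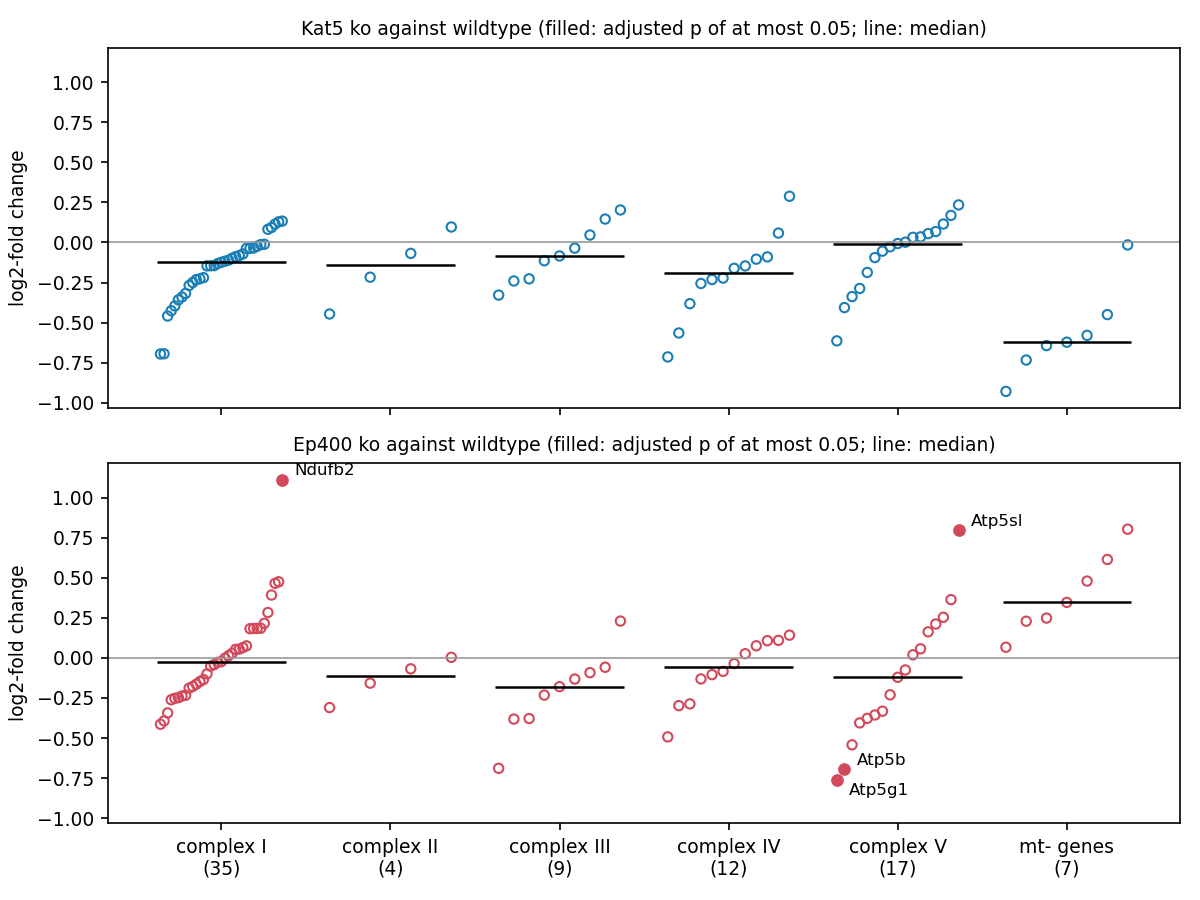
Log2-fold changes against wildtype cells (vertical axes) for nuclear members of complexes I to V and for mt- genes, in Kat5 ko clones (upper panel) and Ep400 ko clones (lower panel). Each circle is a gene, filled circles have an adjusted p of at most 0.05 and black lines are medians. Called genes appear only in the lower panel (*Ndufb2*, *Atp5sl*, *Atp5b* and *Atp5g1*), and mt- genes lie below 0 in the upper panel and above 0 in the lower.

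The separated nuclear members with the largest fall in each complex were *Ndufv3*, *Sdhc*, *Cox7a2l* and *Atp5s*, and complex III had none. *Atp5s* is counted with complex V by name only, and the subunit gene *Atp5g2*, described below, was also separated there. *Ndufv3* encodes an accessory subunit in the NADH-oxidizing part of complex I. Its level was 50.8, 48.8, 52.8 and 45.4 normalized CPM in wildtype libraries and 39.9, 25.8 and 27.6 in Kat5/1, Kat5/2 and Kat5/3 (log2-fold change −0.70, SE 0.19, adjusted p = 0.0932 by edgeR). *Sdhc*, a membrane anchor of complex II, had 136, 146, 126 and 146 in wildtype libraries and a narrow range of 104, 102 and 106 in Kat5 ko libraries (log2-fold change −0.45, SE 0.12, adjusted p = 0.0930 by edgeR). *Cox7a2l* links complexes III and IV in supercomplexes. It had 141, 145, 135 and 135 in wildtype libraries and 119, 79.4 and 61.0 in Kat5 ko libraries, so that Kat5/1 was close to wildtype and the other clones well below (log2-fold change −0.71, SE 0.22, adjusted p = 0.120 by edgeR). *Atp5s*, with 6.87, 8.03, 8.01 and 7.13 in wildtype and 4.02, 5.73 and 5.29 in Kat5 ko libraries, was the lowest of them in level (log2-fold change −0.61, SE 0.23, adjusted p = 0.175 by edgeR). It lies on chromosome 12, whose median gene differed from wildtype by −0.28, 0.11 and 0.01 on the log2 scale in Kat5/1 to Kat5/3.

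Clones differed among themselves. Without Kat5/1, 7 of 77 nuclear members were called, 6 lower and 1 higher, against 19.3% of all 13703 genes tested in this fit. Among them were *Cox7a2l* (log2-fold change −1.02, adjusted p = 0.00659 by edgeR) and *Ndufv3* (−0.92, adjusted p = 0.00755 by edgeR). Both genes lie on chromosome 17, where the median gene of Kat5/3 was 0.33 lower than in wildtype on the log2 scale, and that of Kat5/2 was 0.06 higher. The single higher gene was *Cyc1* (cytochrome c1 of complex III), with 126 normalized CPM in Kat5/1, 262 in Kat5/2 and 303 in Kat5/3 around 163 to 221 in wildtype libraries. It lies on chromosome 15, whose median gene was 0.34 lower in Kat5/1 and 0.26 higher in Kat5/3.

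Among mt- genes, *mt-Co1* had the largest difference in Kat5 ko clones. It had 6162, 5380.0, 11557 and 6836 normalized CPM in wildtype libraries and 3291, 5268 and 3489 in Kat5 ko libraries, so that Kat5/2 was just below the lowest wildtype library (log2-fold change −0.93, SE 0.29, adjusted p = 0.129 by edgeR). For the others, medians in wildtype and Kat5 ko libraries were 3021 and 1903 for *mt-Nd1*, 1371 and 842 for *mt-Nd2*, 888 and 528 for *mt-Nd4*, 1537 and 994 for *mt-Nd5*, 2756 and 2255 for *mt-Cytb* and 4.06 and 4.35 for *mt-Nd6*. All of these overlapped between groups. The 5 genes with under 5% of windows copied had a median log2-fold change of −0.58.

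In Ep400 ko clones, 4 of 77 nuclear members were called (5.19%), against 13.9% of the 13836 genes tested. *Ndufb2* and *Atp5sl* were higher and *Atp5g1* and *Atp5b* were lower. The calls depended on single libraries, with 0 nuclear members called without WT/1, WT/2 or WT/4 and 2 without WT/3 or Ep400/3. Calls over all genes fell from 1917 to 826, 1000 and 873 without WT/1, WT/2 and WT/4, respectively. They were 1668 without WT/3 and 1730 without Ep400/3. Of the 7 mt- genes, 0 were called by edgeR or limma and 1 by DESeq2, and 1 had an unadjusted p of at most 0.05. In this comparison, DESeq2 called 3175 of 16326 genes, and 4466 of 13836 had an unadjusted p of at most 0.05 in edgeR. The median log2-fold change was −0.08 for nuclear members, with 47 of 77 below 0, and 0.35 for mt- genes, with 7 of 7 above 0. Over all genes tested, it was 0.04. Both medians depended on Ep400/3, without which they were 0.01 for nuclear members and 0.14 for mt- genes. In 12 nuclear members, all Ep400 ko libraries were below wildtype (15.6% of members and 14.1% of all genes tested), and in 3 nuclear members and 1 mt- gene all were above (16.1% of all genes tested).

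*Atp5b* (chr10:128083273-128090391) encodes the catalytic beta subunit of ATP synthase. It had 2032, 2065, 1936 and 1898 normalized CPM in wildtype libraries and 1405, 1373 and 903 in Ep400/1, Ep400/2 and Ep400/3. All ko libraries were clearly below wildtype, with Ep400/3 lowest (log2-fold change −0.69, SE 0.19, adjusted p = 0.0466 by edgeR). The remaining members of the catalytic F1 part were not called. Their alpha subunit gene *Atp5a1* (900.1, 931, 834 and 893 in wildtype and 791, 666 and 558 in Ep400 ko libraries) and delta subunit gene *Atp5d* (276, 290.0, 233 and 189.7 against 183, 188 and 138), named after their values were seen, were also separated from wildtype (log2-fold changes −0.41 and −0.54, adjusted p = 0.123 and 0.0922 by edgeR). The median log2-fold change of the 5 F1 genes was −0.41, and that of the 7 genes for stalk and membrane parts 0.02.

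*Atp5g1* (chr11:96068852-96075670) is one of the genes for subunit c, which forms the rotating ring of ATP synthase. It had 131, 119, 107 and 121 normalized CPM in wildtype, 109, 158 and 164 in Kat5 ko and 82.0, 78.2 and 51.1 in Ep400 ko libraries. Ep400 ko libraries were below all others (log2-fold change against wildtype −0.76, SE 0.18, adjusted p = 0.0286 by edgeR). The median gene of chromosome 11 was lower by 0.22, 0.21 and 0.27 on the log2 scale in the Ep400 ko clones, and with an offset per chromosome the log2-fold change of *Atp5g1* was −0.57 and the call was lost (adjusted p = 0.0750 by edgeR). In addition, 57.3% of its windows are copied in the processed pseudogene *Gm10039*, which had 8 to 27 counts per library while *Atp5g1* had 2052 to 7462.

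*Atp5g1*, *Atp5g2* and *Atp5g3* encode the same mature subunit c with different import signals. In Kat5 ko clones, *Atp5g2* had 84.3, 129 and 126 normalized CPM against 149, 155, 146 and 136 in wildtype libraries, below all of them (log2-fold change −0.41, SE 0.16, adjusted p = 0.196 by edgeR). In Ep400 ko clones, it had 107, 136 and 96.0 (log2-fold change −0.38, adjusted p = 0.122 by edgeR). *Atp5g2* lies on chromosome 15. On the log2 scale, the median gene there differed from wildtype by −0.34, 0.11 and 0.26 in Kat5/1 to Kat5/3. In Ep400/1 to Ep400/3, it differed by −0.14, −0.15 and −0.18. *Atp5g3* had 245, 277, 214 and 229 in wildtype, 248, 259 and 324 in Kat5 ko and 221, 208 and 146 in Ep400 ko libraries, and overlapped between wildtype and either ko. Per kilobase, *Atp5g1* provided 23.0% ± 1.59 of the summed level in wildtype (SD, n = 4), 27.1% ± 1.75 in Kat5 ko and 18.3% ± 1.57 in Ep400 ko libraries (SD, n = 3 each). The share of *Atp5g2* was 38.2% ± 1.70, 28.8% ± 2.74 and 40.04% ± 4.25, and that of *Atp5g3* was 38.7% ± 1.83, 44.1% ± 4.45 and 41.7% ± 2.77, respectively. All windows of the *Atp5g2* transcript used also occur in other transcripts, so its share is uncertain. The shares also depend on the transcript chosen. With the longest principal transcripts, *Atp5g1* provided 4.54% ± 0.390 in wildtype (SD, n = 4), 5.33% ± 0.553 in Kat5 ko and 3.41% ± 0.283 in Ep400 ko libraries (SD, n = 3 each), with the groups in the same order.

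*Ndufb2* (chr6:39592574-39603382), an accessory subunit in the membrane arm of complex I, had the largest rise. It had 4.15, 5.06, 5.27 and 4.44 normalized CPM in wildtype, 6.59, 4.38 and 3.37 in Kat5 ko and 7.67, 8.59 and 14.4 in Ep400 ko libraries. Ep400 ko libraries were above all others, and Ep400/3 was highest (log2-fold change 1.11, SE 0.28, adjusted p = 0.0347 by edgeR). Without Ep400/3, the log2-fold change was 0.78 (adjusted p = 0.0675 by edgeR). In Kat5 ko clones, the log2-fold change was −0.01.

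*Atp5sl* (chr7:25619414-25625551), named Dmac2 in RefSeq, is known as an assembly factor of complex I despite its name. It had 12.2, 9.39, 11.3 and 10.1 normalized CPM in wildtype, 9.48, 8.44 and 9.10 in Kat5 ko and 19.7, 15.9 and 20.4 in Ep400 ko libraries. Again, Ep400 ko libraries were above all others (log2-fold change 0.79, SE 0.19, adjusted p = 0.0274 by edgeR).

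The largest falls among separated members of the other complexes were those of *Cyc1* and *Ndufv3*. *Cyc1* had 201, 221, 197 and 163 normalized CPM in wildtype libraries and 159, 117 and 87.6 in Ep400 ko libraries, where Ep400/1 was close to WT/4 (log2-fold change −0.69, SE 0.21, adjusted p = 0.0644 by edgeR). *Ndufv3* had 35.7, 37.2 and 38.4 in Ep400 ko libraries (log2-fold change −0.41, SE 0.12, adjusted p = 0.0599 by edgeR). It was thus below all wildtype libraries in both sets of clones, which were compared with the same wildtype libraries. On its chromosome 17, the median gene differed from wildtype by 0.07, −0.33 and −0.18 on the log2 scale in Ep400/1 to Ep400/3. On chromosome 15, where *Cyc1* lies, it differed by −0.14, −0.15 and −0.18. Complexes II and IV had no separated nuclear member in Ep400 ko clones.

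**Figure D3:**
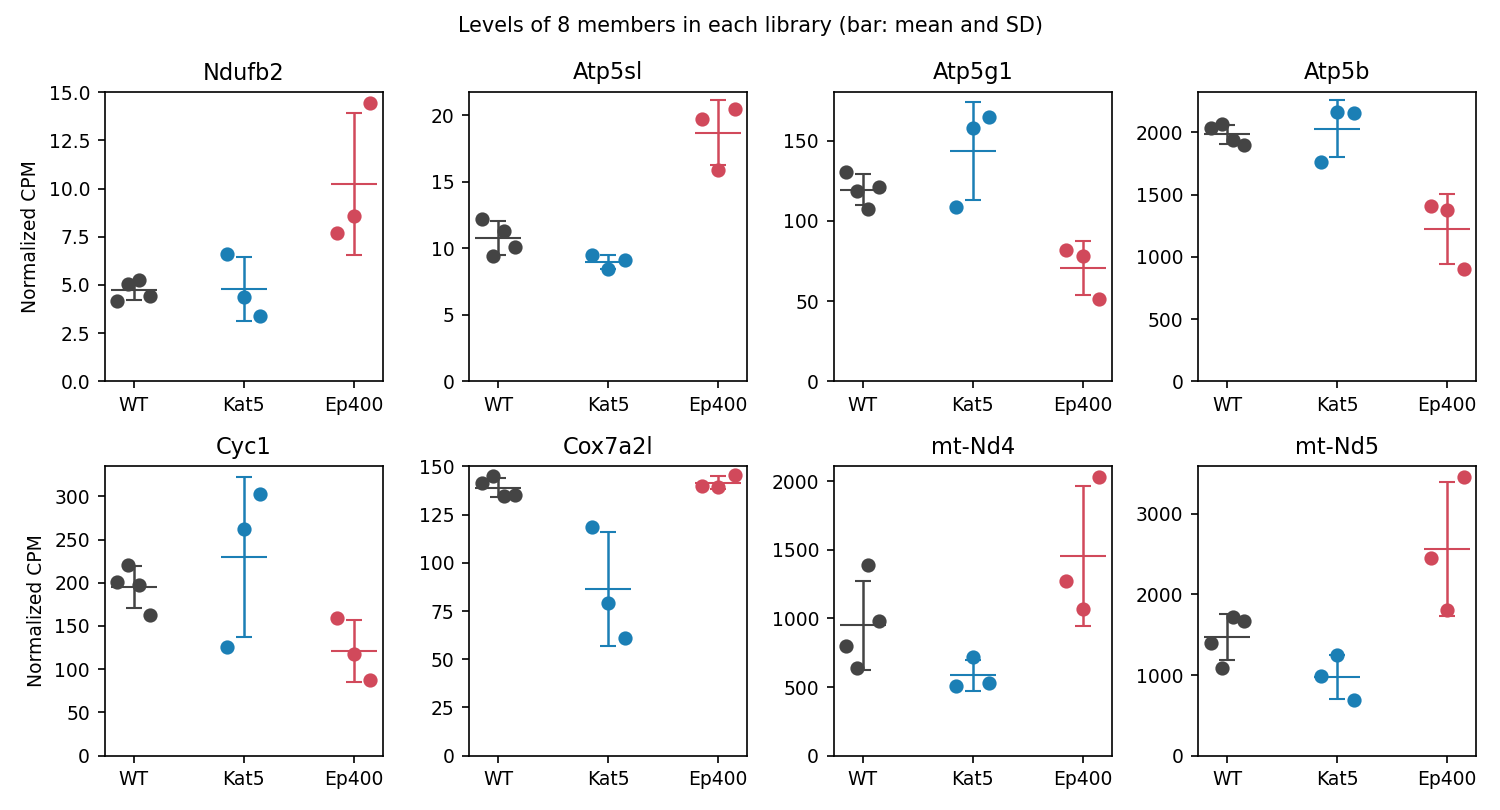
Normalized CPM (vertical axes, starting at 0) of 8 members in each library of wildtype (WT), Kat5 ko and Ep400 ko cells. Points are libraries and bars are means with SD (n = 4, 3 and 3). *Atp5g1* and *Atp5b* are lower and *Ndufb2* and *Atp5sl* higher in all Ep400 ko libraries than in wildtype, while *mt-Nd4* and *mt-Nd5* show their lowest group in Kat5 ko and their highest in Ep400 ko libraries.

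Among mt- genes in Ep400 ko clones, *mt-Nd5* for a membrane subunit of complex I had the largest difference. It had 1402, 1093, 1718 and 1673 normalized CPM in wildtype and 2447, 1804 and 3453 in Ep400 ko libraries, without overlap (log2-fold change 0.80, SE 0.26, adjusted p = 0.0703 by edgeR). Medians in Ep400 ko libraries were 2941 for *mt-Nd1*, 1511 for *mt-Nd2*, 7253 for *mt-Co1*, 1271 for *mt-Nd4*, 5.16 for *mt-Nd6* and 3376 for *mt-Cytb*, and all of these overlapped wildtype. The 5 genes with under 5% of windows copied had a median log2-fold change of 0.35.

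Kat5 ko and Ep400 ko clones were then compared directly, since the fold changes of mt- genes against wildtype differed in sign. On the log2 scale they were −0.93 to −0.02 in Kat5 ko and 0.07 to 0.80 in Ep400 ko clones, and no mt- gene was called in either. Of 7 mt- genes, 1 was called and 7 had a log2-fold change above 0 (median 0.88, against 0.01 over all 13587 genes tested, of which 7.32% were called). For the 5 genes with few copies, the median was 0.78 and 0 were called, while 3 reached 0.05 with the unadjusted p. Of all 13587 genes tested, 4404 reached an unadjusted p of at most 0.05. The called gene was *mt-Nd4*, with 509, 716 and 528 normalized CPM in Kat5 ko and 1271, 1066 and 2029.7 in Ep400 ko libraries (log2-fold change 1.30, SE 0.31, adjusted p = 0.0482 by edgeR). Its wildtype libraries had 797, 639, 1389 and 978 and overlapped both groups of clones. The call was lost without any single library (adjusted p = 0.0608 to 0.169 by edgeR). Calls over all genes rose from 994 to 2537 without Kat5/1. Without another library, they fell to between 4 (without Ep400/3) and 368 (without Ep400/1). *mt-Nd5* had 994, 1243 and 691 against 2447, 1804 and 3453 (log2-fold change 1.37, SE 0.34, adjusted p = 0.0523 by edgeR). All Ep400 ko libraries exceeded all Kat5 ko libraries in 4 of 7 mt- genes and 8 of 77 nuclear members (20.5% of all genes tested).

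Nuclear members showed no such shift. Their median log2-fold change between Ep400 ko and Kat5 ko clones was 0.01 (−0.03 to 0.13 without single libraries). Of 77, 0 were called by edgeR, 3 by DESeq2 and 1 by limma. Over all genes, edgeR called 994 of 13587, DESeq2 3013 of 15735 and limma 1132 of 13587. An unadjusted p of at most 0.05 was reached by 12 nuclear members, against 4404 of 13587 genes tested. All Ep400 ko libraries were below all Kat5 ko libraries in 7 nuclear members (18% of all genes tested), of which 6 belong to complex V. *Atp5g1* differed most among these (log2-fold change −1.05, SE 0.26, adjusted p = 0.0522 by edgeR).

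Per library, the median log2 difference of nuclear members from the wildtype mean was 0.07, 0.17, −0.14 and −0.08 in WT/1 to WT/4, −0.01, −0.11 and −0.21 in Kat5/1 to Kat5/3 and 0.07, 0.01 and −0.30 in Ep400/1 to Ep400/3. For mt- genes it was −0.06, −0.49, 0.36 and 0.21 in wildtype, −0.84, −0.22 and −0.58 in Kat5 ko and 0.27, 0.18 and 0.82 in Ep400 ko libraries. Thus, wildtype libraries spanned more than the difference between their mean and the Kat5 ko mean of mt- genes. The mt- genes took 0.997% ± 0.189 of all counts in Kat5 ko and 2.23% ± 0.848 in Ep400 ko libraries (SD, n = 3 each), and the ratio of mt- to nuclear counts was 0.989 to 2.35 in wildtype, 0.8286 to 1.23 in Kat5 ko and 1.65 to 3.77 in Ep400 ko libraries. Ep400/3 had both the highest mt- and the lowest nuclear median, and the median of 76 genes for cytosolic ribosomal proteins was also lowest there (−0.68, against −0.29 and −0.22 in Ep400/1 and Ep400/2).

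**Figure D4:**
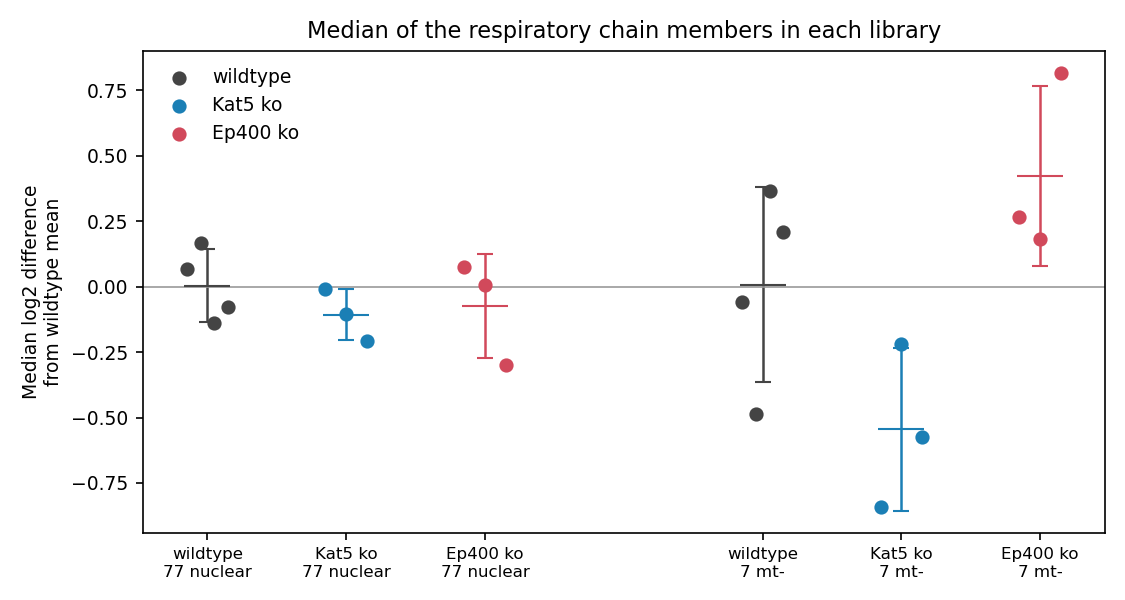
Median log2 difference from the wildtype mean (vertical axis) of the 77 nuclear members (left) and the 7 mt- genes (right) in each library. Points are libraries and bars are mean and SD over libraries (n = 4, 3 and 3). Nuclear medians lie between −0.30 and 0.17, whereas mt- medians range from −0.84 in Kat5/1 to 0.82 in Ep400/3.

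For subunits with alternative genes, the common forms prevailed in all groups. *Cox4i1* had group medians of 352, 325 and 257 normalized CPM in wildtype, Kat5 ko and Ep400 ko libraries, and *Cox4i2*, the form known from lung and low oxygen, 0.011, 0.0659 and 0.156. *Cox6a1* (191, 133 and 177), *Cox7a2* (83.9, 80.0 and 84.4) and *Cox8a* (209, 125 and 199) contrast with the muscle forms *Cox6a2* (at most 0.0498), *Cox7a1* (0.0882 to 0.266) and *Cox8b* (0 in each group). *Cox6b1* had 116, 111 and 126 and the testis form *Cox6b2* 0.534, 0.165 and 0.164. *Ndufa4*, now known as a complex IV subunit, had 157, 132 and 128. None of the members among these genes was called against wildtype. Of 6 skeletal and heart muscle markers, 5 stayed under 0.1 normalized CPM in all libraries.

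Other genes of the pathway were compared as lists. In Kat5 ko clones, 0 genes of the 6 lists were called, at 43 assembly factors, 33 genes for maintenance and expression of mitochondrial DNA, 13 for coenzyme Q synthesis, 2 for cytochrome c, 17 for the citric acid cycle with pyruvate dehydrogenase and 12 biogenesis regulators tested. In Ep400 ko clones, called genes were 3 of 43 assembly factors, 2 of 33 mitochondrial DNA genes, 1 of 13 coenzyme Q genes and 3 of 17 citric acid cycle genes, against 13.9% of all genes tested (8.09% higher and 5.76% lower). *Sdhaf2* (log2-fold change 0.50) and *Cox19* (0.61) were higher and *Tmem70* (−0.57), an assembly factor of ATP synthase, was lower among assembly factors. Of the mitochondrial DNA genes, the transcription factor gene *Tfb2m* rose (0.56) and *Hsd17b10*, part of mitochondrial RNase P, fell (−0.79). The coenzyme Q gene *Adck3* (Coq8a) rose from 0.824 to 7.60 normalized CPM (log2-fold change 3.20, SE 0.51, adjusted p = 0.00779 by edgeR). In the citric acid cycle, 3 of 17 genes fell and none rose, namely *Cs* for citrate synthase (−0.72), *Idh3g* (−0.57) and *Suclg2* (−0.77), and 13 of 17 had a log2-fold change below 0. No cytochrome c gene or biogenesis regulator was called. The median log2-fold change of mitochondrial DNA genes was 0.26 in Kat5 ko and −0.22 in Ep400 ko clones, opposite in sign to the median of the mt- genes in both. Single clones did not all follow this order. Kat5/1 had the lowest sum of these genes among Kat5 ko libraries (1242 normalized CPM, wildtype 1316 to 1369) and also the lowest mt- median (−0.84). Ep400/3 had the lowest sum among Ep400 ko libraries (1011) and the highest mt- median (0.82). A link between both sets was not tested. The 76 genes for mitochondrial ribosomal proteins had medians of 0.09 and −0.14, with 0 and 3 called, the latter again against 13.9% of all genes tested.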

How the data were processed

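RNA sequencing data of 10 O9-1 libraries were used. The authors enriched poly-A RNA, sequenced 2 × 100 bases and mapped to mm10. Their processing notes name bcl2fastq 2.20, STAR 2.7.3, DESeq2 1.36.0 and R 4.2.1, and the counting program, strand setting and annotation are not given in the sources used here. The deposited values used are whole read counts per gene. The deposited normalized tables were not used.

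Counts were tested with edgeR 4.0.16 (R 4.3.3) in each pair of groups, after filterByExpr and TMM, by the quasi-likelihood test with Benjamini-Hochberg adjustment. SE is the absolute log2-fold change divided by the root of F. Alternatives used DESeq2 1.42.0, limma 3.58.1, other normalizations, offsets and libraries left out. Log2 levels used a pseudocount of 0.5. Levels per kilobase used the shortest principal transcript of GENCODE M21 (GRCm38). The procedure was tested on simulated counts. Members and lists were chosen with earlier results of these data known. Named genes were all called members, mt- genes, the largest rise and fall per complex among members separated from wildtype, alternative isoforms and the 3 highest and lowest levels. Adjusted p-values rest on the spread between clones or cultures. Replicate numbers did not pair libraries.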

Additional observations from a re-analysis of the deposited data

Results flagged for a closer look

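The effects of both inactivations on *mt-Nd4* differed by a direct test that only just passed the threshold. The log2-fold change between Ep400 ko and Kat5 ko clones was 1.30 (SE 0.31, adjusted p = 0.0482 by edgeR), with all 3 Ep400 ko libraries above all 3 Kat5 ko libraries. The call did not hold without any of the 6 libraries (adjusted p = 0.0608 to 0.169 by edgeR), with the gene length offset (adjusted p = 0.0590) or with the replicate block (adjusted p = 0.102). Calls over all genes went from 994 to 2537 without Kat5/1 and to between 4 and 368 without another library. They were 1018 with the length offset and 213 with the block. Of the 100-base windows of *mt-Nd4*, 60.8% are copied in a pseudogene on chromosome 1, and the part of this copy in the difference was not tested. Among 34 values checked for a wildtype library that lies far from the other 3, 0 exceeded the critical value.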

How the results depend on the processing

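None of the single genes followed through the settings, called or not, changed its direction. Of 106 medians, all moved by less than 1 SD between libraries, but 6 changed sign, all for nuclear members and close to 0. These were the median in Ep400 ko clones without Ep400/3 (0.01) and, between ko clones, the median with the length offset (−0.01) or without Kat5/2, Kat5/3, Ep400/1 or Ep400/2 (−0.03 to −0.01). For nuclear members in Ep400 ko clones, 4 calls became 7 with DESeq2, 1 with the fold and count limits of the study, and 0 to 4 without single libraries. Calls over all genes there were 1917 of 13836 in the main fit and 3175 of 16326 with DESeq2. Without single libraries, they ranged from 826 (without WT/1) to 2016 (without Ep400/1). For mt- genes there, 0 calls became 1 with DESeq2 and 0 to 1 without single libraries. In Kat5 ko clones, 0 nuclear and 0 mt- calls became 3 and 1 with DESeq2, and nuclear calls 0 to 7 without single libraries. Calls over all genes were 67 of 13434 in the main fit, 1391 of 14218 with DESeq2 and 2651 of 13703 without Kat5/1. Without another library, they ranged from 1 (without WT/1) to 58 (without WT/2). Between ko clones, 0 nuclear calls became 3 with DESeq2, 1 with limma, without filter or with the chromosome offset (added after values were seen), 9 in a single fit of all libraries and 0 to 5 without single libraries. Calls over all genes between ko clones were 994 of 13587 in the main fit, 3013 of 15735 with DESeq2 and 1132 with limma. They were 1803 without filter, 1017 with the chromosome offset and 3539 of 14079 in the single fit. There, 1 mt- call became 4 with DESeq2, 3 in the single fit, 2 with limma, library size alone, no filter or GC offset, and 0 with the length offset or without any single library. With library size alone, the median of all genes in this comparison moved to 0.14. *Kat5* kept a log2-fold change of −1.47 to −1.24 without single libraries, with adjusted p up to 0.109 by edgeR. The causes were not tested.

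Replicate numbers did not pair libraries (correlations −0.13 to 0.23). With the replicate block, 0 nuclear members and 0 mt- genes were called in any comparison, and *Kat5* had −1.39 (adjusted p = 0.127 by edgeR). Over all genes, the block left 0 calls in Kat5 ko and 170 in Ep400 ko clones against wildtype, and 213 between ko clones. The 6 mt- genes near 0 had 25 to 147 reads in sum per library, and no comparison between groups is given for them.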

Other observations

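*Gm6969*, a processed pseudogene that holds 11.7% of the windows of *Cox7a2l* and was singled out after its values were seen, had 7 counts in Kat5/3 and 428 to 1057 in the other 9 libraries. *Cycs*, for somatic cytochrome c, had 60.8 to 100.3 normalized CPM in wildtype, 102 to 141 in Kat5 ko and 25.9 to 71.3 in Ep400 ko libraries, and was not called in any comparison (adjusted p = 0.130, 0.230 and 0.0681 by edgeR for Kat5 ko and Ep400 ko against wildtype and for Ep400 ko against Kat5 ko).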
